A study of Arabidopsis thaliana with 12 samples.

Results

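In flowers of Arabidopsis thaliana, 44 probe sets had a mean signal of at least 100 in Col-0 and a signal of 20 or less in at least 1 of 9 other accessions. They are 0.195% of the 22596 probe sets compared and 0.628% of the 7008 that reached 100 in Col-0, out of 22810 on the array. These probe sets are called members here, and a signal of 20 or less is called silent, a word that stands for the signal and not for proof that no transcript was made. Members were chosen by the mean signals of Col-0 and of the 9 other accessions, so these levels are given as a description and no test of them is read as support. Control probe sets, a block of organelle probe sets, and the genes ECS1, AT2G25450, UGT78D1, CHIL and LTI30 were kept out. Of these genes, 2 met the thresholds, namely ECS1 and AT2G25450, a gene of aliphatic glucosinolate synthesis. Of the members, 27 were named for 1 locus, 6 for several loci and 11 for none in the gene table used here.

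Total RNA of wild-type flowers was hybridized to 12 ATH1 arrays. Col-0 and C24 had 2 arrays each, titled ExpI and ExpII, and Cvi, Da, RLD, Rsch, Ler, Sap, Stw and Ws had 1 array each. Per the study's methods, C24, Cvi, Da, RLD and Rsch make saiginols, which are phenylacylated flavonols of the flower, and the other accessions do not. No treatment or transgene was involved, the age of the plants at harvest is not given in the sources used here, and whether duplicate arrays hold RNA of different plants is not given either.

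Accessions are inbred lines descended from plants collected in different places, and they differ in gene content, in regulatory sequence and in the sequence of transcripts. A gene that is active in one accession can be deleted, disrupted or switched off in another, and families for defence and secondary metabolism are known for such variation. The ATH1 probes were designed on the Col-0 sequence. A low signal in another accession can therefore come from less transcript, from an absent gene or from a sequence change under the probes, and these cannot be told apart in 1 summarized signal per probe set. In whole flowers, fewer cells of a type and less RNA per cell cannot be told apart either.

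Array medians lay between 46 and 51.1, and no signal of 15 control probe sets for bacterial genes exceeded 9.6. In each accession between 30.7% and 33.0% of the probe sets compared were silent. Titles and ecotype labels disagreed for Sap, labelled as RLD, and for Stw, labelled as Sap-0, and samples were grouped by title. Of the members, 7 were silent in RLD and not in Sap, 5 in Sap and not in RLD, and 6 in both. No gene of the flower organ identity or seed lists had a probe set named for it, so the tissue was checked with AT5G07230, a tapetum gene, which ranged from 247.6 in Rsch to 899.2 in Ler. The summed signal of 7 pollen markers ran from 760.6 in Cvi to 2742 in Da, with BZIP34 at 10.2 or less throughout. That of 3 tapetum markers ran from 422.3 in Rsch to 1216 in Ler. The markers within a list did not move together, and the sums follow their strongest genes. Of the tapetum markers, AT5G07230 and AT1G75920 (276.5) were highest in Ler, but AMS had 40.3 in Ler and 183.9 in C24. Of the pollen markers, AT5G45880 reached 1911 in Da, while ACT12 was highest in Col-0 at 45.6 and ANX1 was at 13.1 or less throughout. The single green tissue marker, RCA, ran from 2095 in Col-0 to 3085 in Ler. The part of these differences in the results was not tested.

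Duplicate arrays gave a yardstick for single arrays. Between the Col-0 arrays, 1 probe set was at 100 or more on ExpII and silent on ExpI, and 0 the other way. Between the C24 arrays, 39 were at 100 or more on ExpII and silent on ExpI, and 0 the other way. None of these disagreements involved a member. With C24 ExpII as the expressing array, between 37 and 60 probe sets were silent on an array of another accession, against 3 to 24 for array pairs without C24 ExpII. The second C24 array thus stood apart in the very measure used here, and counts with C24 as the expressing accession depend on it, as given with those counts. All 11 members silent in C24 were so on both of its arrays, with no value above 19.8.

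**Figure D1:**
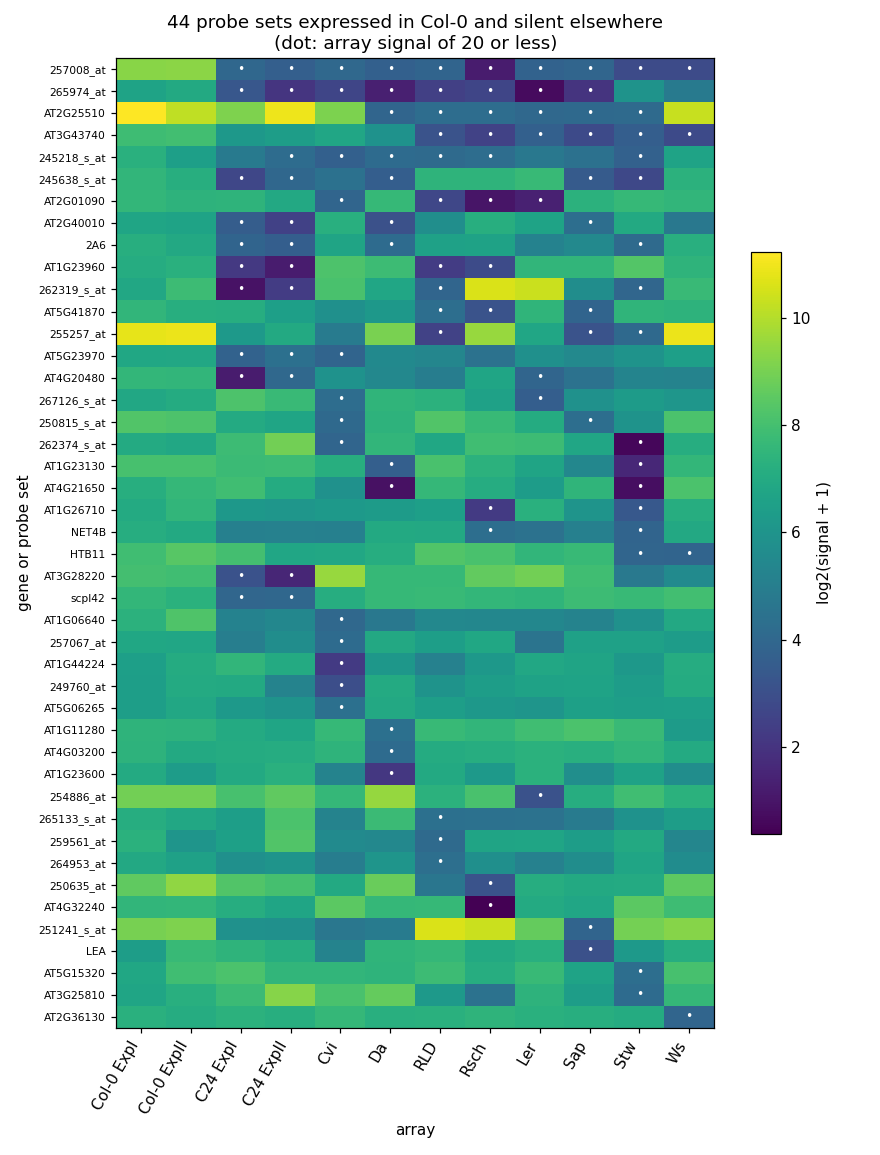
Signals of the 44 members (rows) on the 12 arrays (columns), coloured by log2(signal + 1), with a dot where an array's own signal was 20 or less. Rows run from members silent in the most accessions (257008_at, 9 accessions) at the top to members silent in 1 accession at the bottom, where some rows are even but for a single dark cell.

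The members were moderately expressed in Col-0. Their Col-0 means ran from 101.8 to 1843 with a median of 158.2, and 32 of 44 lay under 200. Both Col-0 arrays were at 100 or more for 35 members, and for the other 9 one of the arrays was below it. The Col-0 duplicates of members differed by a median ratio of 1.19, against 1.18 for all probe sets that reached 100 in Col-0. On the Col-0 arrays members were thus measured about as evenly as other genes. The C24 duplicates of members not silent in C24 differed by a median ratio of 1.38, for which no background is given here. Among the 396 values of members in the 9 other accessions, 100 (25.3%) were silent, 114 (28.8%) lay between 20 and 100, and 182 (46.0%) were at 100 or more. Over all probe sets that reached 100 in Col-0 these shares were 0.166%, 9.90% and 89.9%, and the rule fixes most of this difference. Of the 100 silent values, 42 were no higher than the highest signal of the bacterial controls.

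**Figure D2:**
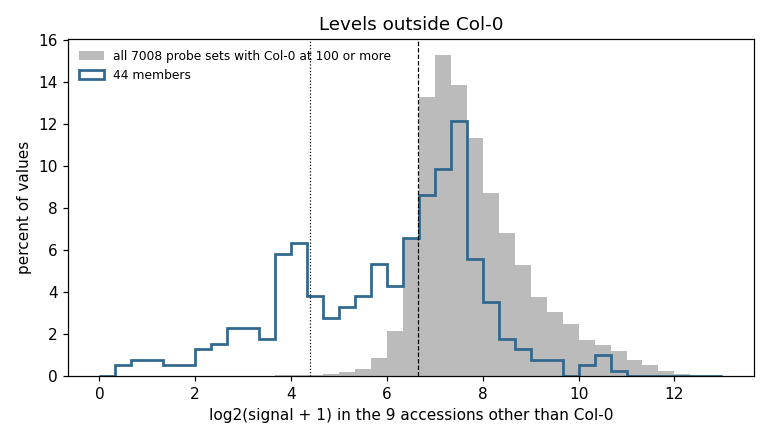
Distribution of log2(signal + 1) in the 9 accessions other than Col-0, as percent of values, for the 44 members (line) and all 7008 probe sets with Col-0 at 100 or more (grey), with dotted and dashed lines at signals of 20 and 100. Values of members form a low group below the dotted line and a broad high group near the grey distribution, with 28.8% of them between the lines.

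By the limit of 20, silence was usually private to 1 accession or shared by few. Of the members, 21 were silent in 1 accession, 10 in 2, 6 in 3, 2 in 4, 1 in 5, 2 in 6, 1 in 7 and 1 in all 9. Of the 21, only 6 had no accession between 20 and 100. In some, further accessions lay just above the limit, as for 265133_s_at with 19.7 in RLD, 20.2 in Rsch and 21.4 in Ler. Being silent in 1 accession alone thus depends in part on the limit. The members fell into 30 combinations of accessions, of which 21 held a single member. Stw lacked the signal of 16 members, Cvi and RLD of 13 each, Da and Rsch of 12 each, C24 and Sap of 11 each, Ler of 8 and Ws of 4. With ECS1 and AT2G25450 counted as well, the silent share of the 7008 probe sets that reached 100 in Col-0 was 0.243% in Stw, 0.2% in each of Cvi and RLD, 0.186% in each of Da and Rsch, 0.157% in each of C24 and Sap, 0.114% in Ler and 0.0571% in Ws. Without the first Col-0 array the count of members in Ler rose from 8 to 13, and in no other accession did it change by over 1.5 times without 1 duplicate array. The accession with the most members silent in it alone was Cvi with 5, followed by Da and RLD with 3 each. C24, Rsch, Sap and Stw had 2 each, and Ler and Ws had 1 each.

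The opposite pattern, a signal of at least 100 in the accession and silence in Col-0, was counted in the same way. It held for 12 probe sets with Ws, 11 with C24, 9 each with Cvi and Ler, 7 with Rsch, 5 each with Da and Stw, 4 with RLD and 3 with Sap. These counts depended on single arrays. With C24 ExpII as the only C24 array, the count with C24 was 41, and with C24 ExpI alone it was 4. With Col-0 ExpI as the only Col-0 array, the counts ran from 8 (RLD, Rsch, Sap and Stw) to 19 (Ws), and with Col-0 ExpII alone from 3 (RLD) to 12 (C24), with 5 for Sap. Summed over 9 partners, with the genes kept out of the members counted as well, Col-0 was the expressing accession in 105 such cases and the silent one in 65. The same sums were 155 and 83 for C24, 153 and 79 for Ws, 128 and 127 for Cvi, and 59 and 128 for Stw, so the Col-0 sum of 105 lay within the range of the others. For C24 the sums were 79 and 142 without its ExpII array and 433 and 105 without its ExpI array, so that which of the sums was larger turned with the array used. The sum of cases with Col-0 silent was 101 without Col-0 ExpII and 95 without C24 ExpI, while that with Col-0 expressing stayed between 105 and 115. Each accession other than Col-0 and C24 rests on 1 array, and the counts for single arrays carry no error.

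**Figure D3:**
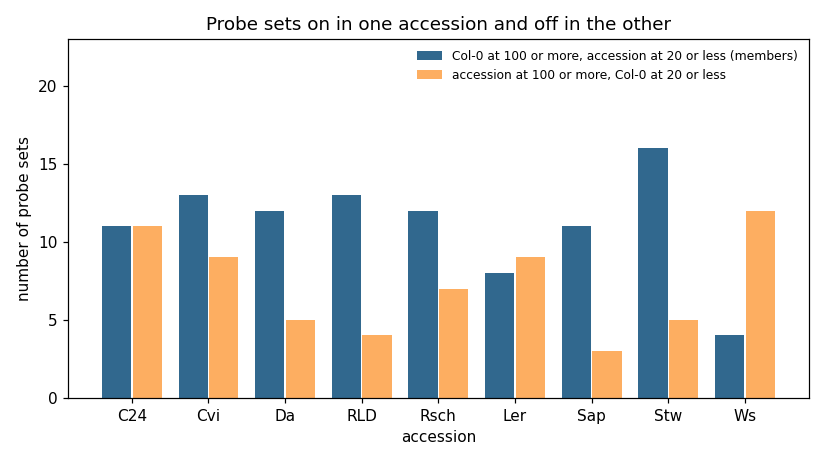
Number of members silent in each accession (dark bars) and of probe sets at 100 or more in that accession and silent in Col-0 (light bars). Dark bars range from 4 in Ws to 16 in Stw, and light bars from 3 in Sap to 12 in Ws.

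In 12 members no accession lay between 20 and 100, so that expressing and silent accessions were set apart by a gap from 18.8 to 101.4 over the group. Of these, 6 were silent in 1 accession. AT2G36130, a cyclophilin-type peptidyl-prolyl isomerase, had signals of 150.2 and 135.9 on the Col-0 arrays and 14.2 in Ws. The remaining 8 accessions were within 130.8 and 190.2, with a median of 153.6, so Ws stood alone in an otherwise even row. AT4G03200 had 168.2 and 122.1 in Col-0, 16.8 in Da and 127.9 to 180.0 elsewhere, which made Da the lone low accession. scpl42, a serine carboxypeptidase-like gene of the protein family that also holds the saiginol acyltransferase, had 187.4 and 158.3 in Col-0 and 14.5 and 15 on the C24 arrays. In the other accessions it ran from 139.2 in Cvi to 247.7 in Ws, and the C24 duplicates were nearly equal.

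AT4G32240 gave the deepest loss among the named members. It had 180.3 and 186.8 in Col-0 and 0.3 in Rsch, under the highest bacterial control signal of 9.6, while the other accessions lay between 110.5 in Sap and 355.8 in Cvi. AT5G15320 had 112.5 and 234.6 in Col-0, 18.8 in Stw and 101.4 to 263.5 elsewhere. Here the Col-0 arrays differed by a ratio of 2.09, so the size of the drop is less certain than its presence on the Stw array. The unnamed probe set 254886_at, with 476.7 and 487.0 in Col-0, was silent in Ler alone at 7.6 and ran from 140.3 in Sap to 736.3 in Da.

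Shared silence with the same clean gap was seen for 6 members. HTB11, a histone H2B gene, had 234.9 and 336.5 in Col-0 and was silent in Stw (13.9) and Ws (13.7). The other accessions ran from 116.2 in Cvi to 305.5 in RLD. AT1G23960 had 137.1 and 151.4 in Col-0 and was silent on both C24 arrays (3.5 and 1.3), in RLD (3.9) and in Rsch (6.2). In the remaining accessions it ran from 171.4 in Ws to 321.4 in Stw, all above Col-0. The silent accessions were therefore all producers, while the producers Cvi (294.5) and Da (225.1) were high.

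AT2G01090, which encodes a hinge-type subunit of the mitochondrial ubiquinol-cytochrome c reductase, had 185.2 and 168.6 in Col-0. It was silent in Cvi (14.0), Ler (1.6), RLD (5.5) and Rsch (1.0), and ran from 146.0 in C24 to 201.1 in Stw in the others. The arrays titled RLD and Sap differed at this gene and at AT1G23960, with Sap at 163.4 and 180.7. Members silent in Sap and at 100 or more in RLD numbered 4.

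AT2G25510 was the most strongly expressed named member. It had 2386 and 1147 on the Col-0 arrays, 557.9 and 1999 on the C24 arrays, 540.2 in Cvi and 1263 in Ws. In Da, Ler, RLD, Rsch, Sap and Stw it lay between 14.3 and 18.1, so the accessions formed separate groups whose nearest values differed by a ratio of 29.8. The duplicates on the expressing side differed by ratios of 2.08 in Col-0 and 3.58 in C24, which is small against that gap. The unnamed probe set 257008_at had 631.3 and 648.9 in Col-0 and between 1.3 (Rsch) and 15.4 (Cvi) in the 9 other accessions. It was the 1 member whose signal reached 20 in no other accession. The unnamed 262374_s_at was silent in Cvi (14.0) and Stw (0.5) and at 110.9 or more in the rest.

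**Figure D4:**
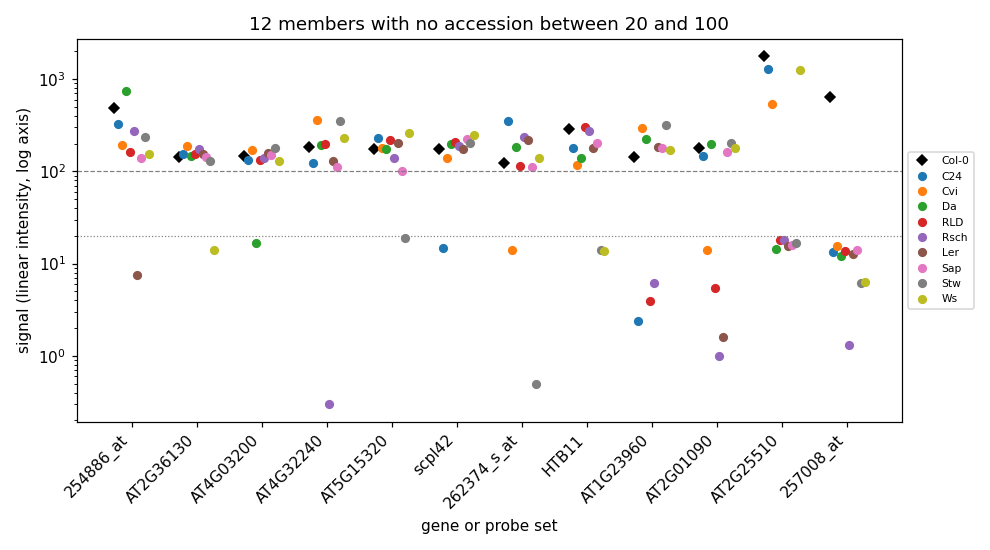
Signals (log axis) of the 12 members in which no accession lay between 20 (dotted line) and 100 (dashed line), with Col-0 as black diamonds and the 9 other accessions as coloured points, C24 and Col-0 as means of 2 arrays. From left to right the number of silent accessions grows from 1 to 9 (257008_at), and AT4G32240 in Rsch has the lowest signal at 0.3.

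In 16 of 44 members, 4 or more of the 9 accessions lay between 20 and 100, so that levels were graded rather than set apart. Of the enzyme genes described next, AT1G06640, 2A6 and AT5G23970 belong to these 16, and AT3G25810 and AT5G41870 do not. The 2-oxoglutarate-dependent dioxygenase gene AT1G06640 had 159.3 and 304.5 in Col-0, 120.8 in Ws and 15.3 in Cvi, with 25.3 to 56.7 in the 7 others. Silence in Cvi was thus the low end of a range that most accessions shared. 2A6, another dioxygenase gene of this class, was silent in C24 (13.7 and 11.3), Da (17.0) and Stw (16.3) and ran from 35.3 in Ler to 146.0 in Ws elsewhere. AT5G23970, a BAHD-type acyltransferase gene, had 114.3 and 116.6 in Col-0, and was silent in C24 (13 and 19.8) and Cvi (13.8). Its other values ran from 21.1 in Rsch to 89.2 in Ws, with no gap between silent and expressing accessions. AT3G25810, a terpene synthase gene, had 106.1 and 149.1 in Col-0, 17.2 in Stw and 21.1 in Rsch. It reached 220.0 and 602.0 on the C24 arrays, so that Col-0 was itself near the middle. AT5G41870, a pectin lyase-fold gene, was silent in RLD (18.5), Rsch (7.9) and Sap (13.7), intermediate in Cvi (55.7) and Da (71.0), and near the Col-0 mean of 162.6 in Ler, Stw and Ws.

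AT3G43740, a leucine-rich repeat protein gene, had 232.9 and 241.2 in Col-0 and 59.6 to 110.6 in C24, Cvi and Da. It was silent in the other 6 accessions, at 4.8 to 12.2, so the levels formed 3 steps. AT1G11280, an S-locus lectin receptor kinase gene, had 20 in Da, exactly at the limit, and 79.8 or more elsewhere. AT4G21650, a subtilisin-like protease gene, was at 0.8 in Da and 0.7 in Stw and between 57.4 and 281.2 in the others. AT3G28220, a TRAF-like (MATH) family gene, had 7.6 and 1.9 on the C24 arrays, 25.8 in Stw and 46.1 in Ws, and reached 755.8 in Cvi, 3.10 times its Col-0 mean.

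Members with roles in basic cell functions or stress were also found. AT2G40010, which encodes an acidic ribosomal stalk protein of the P0 type, had 107.4 and 99.6 in Col-0 and was silent in C24 (10.9 and 4.6), Da (7.4) and Sap (18.8). Cvi, Rsch and Stw lay at 125.2 or above, so this member was high in some accessions of either chemotype. LEA, a dehydrin gene, was silent in Sap (7.4) and ran from 36.6 in Cvi to 195.2 in RLD, but its Col-0 arrays (84.3 and 202.7) differed by a ratio of 2.41. NET4B, of the NETWORKED family of actin-binding proteins, fell into Col-0, Da, RLD and Ws at 119.2 to 132.0 and the 6 others at 13.7 to 34.05, of which Rsch (18.7) and Stw (13.7) were silent.

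The remaining named loci, for which no role is given here, each had at least 1 accession between 20 and 100. AT1G23130 was silent in Da (11.6) and Stw (2.0) with 267.9 and 268.0 in Col-0, and AT1G26710 in Rsch (3.6) and Stw (9.3) with 127.2 and 180.6 in Col-0. AT1G23600 was at 3.4 in Da against 128.5 and 81.3 in Col-0. AT4G20480 was silent in C24 (1.3 and 15.4) and Ler (14.1), and 108.0 in Rsch was its highest value outside Col-0 (187.2 and 182.5). AT1G44224 (3.7) and AT5G06265 (19.6) were silent in Cvi alone. For AT5G06265 the Col-0 mean of 101.8 and the Cvi value both lie at the limits of the rule.

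Col-0 was the highest accession in 11 of 44 members. In the other 33 at least 1 accession exceeded Col-0, and in 7 by at least 2-fold. Some excesses were small, with ratios of 1.003 for 264953_at in Stw, and 1.015 for AT1G23130 and 1.037 for 250815_s_at in RLD. These lie under 1.19, the median ratio between the Col-0 duplicates of members. The matching share over all probe sets expressed in Col-0 is not given here, so these counts are a description. The largest ratio of another accession to Col-0 was 9.20, for 262319_s_at, a probe set listed for several loci. It had 116.9 and 226.7 in Col-0, 1580 in Rsch and 1294 in Ler. It was silent in C24 (0.9 and 4.0), RLD (14.1) and Stw (14.4), and it lay at 50.6 in Sap. Another probe set of several loci, 251241_s_at, reached 1568 in RLD and 1290 in Rsch. It was silent in Sap at 13.5, with 24.7 in Cvi and 28.7 in Da just above the limit. The unnamed 255257_at had 1779 and 1907 in Col-0 and 1928 in Ws, but 4.8 in RLD, 7.9 in Sap and 16.1 in Stw. The unnamed 265974_at was silent in 7 accessions, at 0.6 to 6.1, and had 102.0 and 123.1 in Col-0, 61.3 in Stw and 26.7 in Ws.

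Some members were measured by probe sets that can detect more than 1 transcript, marked _s_at or _x_at. These made up 8 of 44 members (18.2%), beside 3.50% of all probe sets that reached 100 in Col-0, a difference that was not tested. Which locus lost its signal cannot be told for these 8. Of the members named for 1 locus, 2 had a second probe set. That of AT1G44224 was at most 11.1 in every accession, Col-0 included, and that of 2A6 lay between 10.0 and 28.7, so neither followed the pattern of the member.

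Named members were found on every chromosome. By the RefSeq order of TAIR10.1, chromosomes 1 to 5 held 8, 6, 4, 4 and 5 of the 27 named members, out of 881, 515, 709, 509 and 847 named loci expressed in Col-0. No pair of them lay within 10 annotated genes of each other, and the nearest pair, AT1G23960 and AT1G23600, were 36 genes apart and shared no silent accession. Neighbouring genes mostly kept their signal. Within 5 annotated genes of a member, 26 measured genes reached 100 in Col-0 and gave 52 values in the accessions that lacked the member, of which 0 were silent and 1 (1.92%) was at least 4-fold below Col-0, against 0.600% over all named loci expressed in Col-0. Their median log2 ratio to Col-0 was 0.04, against -0.01 over all. The 1 lower value was that of AT4G20420, 5 genes from AT4G20480, with 59.4 in C24 and 555.2 in Col-0. Smaller drops are not in this count. AT2G25520, next to AT2G25510, had 463.2 in Col-0 and 225.9 to 246.8 in Da, RLD, Rsch, Sap and Stw, but 469.8 in Ler. Within 10 genes, 61 measured genes gave 125 values. A gene was counted anew for each accession that lacked its member, so the values are not independent. Of the 125 values, 5 (4.00%) were at least 4-fold below Col-0, against 0.600% over all, and 2 of these 5 were silent. Besides that of AT4G20420 they were all of AT2G25450, which lies 7 genes from AT2G25510 and had 165.2 in Col-0, 3.1 in Da, 12.9 in Rsch, 35.1 in Ler and 28.5 in Stw. AT2G25450 was thus low in 4 of the 6 accessions silent for AT2G25510, while RLD and Sap had 397.6 and 308.7. It was also low in Cvi (10.3), where AT2G25510 was high.

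In the segment of chromosome 2 that the study mapped for saiginol production, At2g22230 to At2g31610, 2 members were found, AT2G25510 and NET4B. AT2G25450, which met the thresholds but was kept out, lies there as well. The number of loci of the segment expressed in Col-0 is not given here. Neither of the 2 members set producers apart from non-producers. AT2G25510 was high in the producers C24 and Cvi and the non-producers Col-0 and Ws. NET4B was high in the producers Da and RLD and the non-producers Col-0 and Ws.

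Whether members followed saiginol production was compared over the accessions other than Col-0, 5 producers against 4 non-producers, since the rule treats these 9 alike. The members' values in these accessions were used to choose them, so their counts are set beside the background and nothing is read from them. With limma on log2(signal + 1) and Benjamini-Hochberg adjustment over 22596 probe sets, no probe set and no member reached the adjusted threshold of 0.05 (0% in each direction). At an unadjusted p under 0.05, 0 members were higher in producers (background 2.22%) and 1 was lower (background 4.28%). Over all probe sets this split was 501 higher and 966 lower, 685 and 723 after quantile normalization, and 841 and 576 with arrays scaled to a common median. The 1 member was AT5G23970, whose mean was 27.3 over 5 producers and 62.4 over 4 non-producers (log2 difference -1.27). Its groups overlapped, with 45 in Da above 43.7 in Sap. AT1G23960, whose silent accessions were all producers, had means of 106.4 and 214.3. Its log2 difference was -3.11, and -1.97 with 16 added to each signal in place of 1. No member separated the groups without overlap (background 0.814% higher and 1.47% lower in producers). Without Sap and Stw, the arrays whose labels disagree, 1 member was higher and 4 were lower without overlap, where the background over all probe sets was 4.6% and 4.81%. Of the 100 silent values, 61 fell in the 5 producers and 39 in the 4 non-producers. The groups differ in size and Ws alone had as few as 4, so nothing is read from this split.

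Of the gene lists described in the processing notes, none held a member as the lists were matched here. Among named genes with Col-0 at 100 or more, this was 0 of 12 small cysteine-rich peptide genes, 0 of 9 glycosyltransferase genes, 0 of 5 glutathione transferase genes, 0 of 4 cold and heat response genes and 0 of 3 tapetum genes. It was 0 of 2 for each of pollen genes, cytochrome P450 genes, glucosinolate genes, and lectin and lipase genes. It was 0 of 1 for disease resistance genes, green tissue genes and loci known for natural variation, where the background over all 3461 named loci expressed in Col-0 was 27 members. The 8 other lists had no measured gene at 100 or more in Col-0, among them 923 pseudogenes and transposable elements with a named probe set. These lists hold few measured genes, and AT2G25450 and LTI30 had been kept out. The lists matched by keyword do not hold every related gene. The lists for receptor-like kinases, for 2-oxoglutarate-dependent dioxygenases and for C1 and MATH domain proteins held 0 measured genes. They thus missed the members AT1G11280, AT1G06640, 2A6 and AT3G28220, and their counts of 0 say nothing on these families.

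The limits of the rule cut through a continuum. Just inside the Col-0 limit stood AT5G06265 (101.8), AT2G40010 (103.5) and AT1G23600 (104.9), and just outside it AT5G05750 (99.6, with 15.1 in Ler), AT3G44430 (99.2, with 0.9 in Ler) and an unnamed probe set (98.6). Just inside the silent limit stood AT1G11280 (20), 265133_s_at (19.7) and AT5G06265 (19.6). The lowest values just outside it were 21.0 in RLD, 21.6 in C24 and 21.9 in Da, each of an unnamed probe set. AT3G44430 in particular had as clear a loss in Ler as many members.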

How the data were processed

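Flower RNA of 10 accessions was hybridized to 12 ATH1 arrays. Each deposited value is a linear intensity of a probe set, and the authors had scaled every array to a trimmed mean of 100.0, as the values themselves show. What software summarized the probes is not given in the sources used here. Gene names came from the platform annotation and from RefSeq (TAIR10.1), by which 13417 probe sets list 1 gene, 494 several and 8685 none. Col-0 and C24 arrays were averaged. Producers and non-producers were compared with limma 3.58.1 in R 4.3.3 on log2(signal + 1). Where some signals are near the floor, the log2 difference depends on the constant added, called the pseudocount. The procedure was tested on simulated data, and the outcome is not given here. All simulated probe sets had the same spread, and changes were planted only above the median level. That test therefore does not cover changes near the floor or in probe sets with a wide spread. Figures were drawn with matplotlib.

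The members, gene lists and tests were chosen with earlier results of these data known. Named are the 3 members with the highest Col-0 mean for each silent accession, those silent in 4 or more accessions, those in gene lists and those at the limits, and the other members with 1 locus were added after their values were seen, so that all 27 are named. The neighbour values, the requirement of both Col-0 arrays and the accession pair counts without 1 duplicate array were also chosen after seeing the data. Of 20 gene lists, 12 used keywords on symbols and synonyms, which the gene table holds for few genes, so these lists are incomplete. Alternatives covered scaling, limits, pseudocounts, low values, the variance prior, probe set class and omission of arrays or accessions. No sequences were analysed here.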

Additional observations from a re-analysis of the deposited data

Results flagged for a closer look

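Among 55 groups of accessions checked, 7 held 1 accession set well apart. Since members were chosen for a low value in some accession, low values of this kind follow from the choice. A high value can stand apart for the same reason where the rest of its group was silent, as for AT2G25510. No rate expected by chance therefore applies to these 7, and they are given as a description. In non-producers other than Col-0, AT5G41870 had 13.7 in Sap against 167.8 to 175.1 in the others, AT2G36130 had 14.2 in Ws against 130.8 to 154.1, and AT5G06265 had 65.0 in Ler against 86.9 to 91.2. High values stood out for AT1G23960, with 321.4 in Stw against 171.4 to 183.6, and for AT2G25510, with 1263 in Ws against 15.6 to 16.7. In producers, AT4G03200 had 16.8 in Da against 131.8 to 170.6, and AT1G26710 had 3.6 in Rsch against 67.9 to 89.9.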

How the results depend on the processing

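The number of members was 44 to 50 when 1 duplicate array of Col-0 or C24 was left out, and 39 of the 44 remained without Col-0 ExpI. It was 42 after quantile normalization, 41 with a common median, 36 without _s_at or _x_at probe sets, 35 with both Col-0 arrays at 100 or more and 40 without Sap and Stw. It moved to 12 with a Col-0 minimum of 200, 23 with a silent level of 10, 74 with one of 30 and 27 with named loci alone. With a silent level of 10, members numbered 6 in C24, 3 in Cvi, 4 in Da, 5 in RLD, 9 in Rsch, 3 in Ler, 4 in Sap, 6 in Stw and 2 in Ws, so that Rsch and not Stw had the most. With 30 they numbered 23 in Stw, 22 in Rsch, 19 in RLD, 18 each in Cvi, Ler and Sap, 17 in Da, 15 in C24 and 10 in Ws, so that Stw had the most. Without 1 array the counts were 11 to 13 in C24, 11 to 16 in Cvi, 11 to 12 in Da, 8 to 13 in Ler (13 without Col-0 ExpI), 13 to 14 in RLD, 12 to 14 in Rsch, 10 to 11 in Sap, 16 in Stw and 4 to 5 in Ws. The summed cases with Col-0 expressing, with the genes kept out of the members counted as well, were 107 to 115 without 1 array and 44 with a silent level of 10. A stricter limit makes these counts smaller and a looser one larger by construction.

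Between producers and the 4 non-producers, the probe sets past the adjusted threshold in limma numbered 5 with a pseudocount of 16, 4 with 64, and 0 to 3 without 1 accession or array (1 without Ler, 3 without Sap, 1 without Stw), and the cause was not tested. Members past it numbered 0 in each alternative. The log2 difference was -1.48 to -1.07 for AT5G23970 and -4.02 to -2.41 for AT1G23960 without 1 accession or array. With a pseudocount of 16 it was -0.889 for AT5G23970 and -1.97 for AT1G23960. With one of 64 it was -0.472 and -1.10. No paired analysis was possible because, of the accessions compared, C24 alone has 2 arrays. Depth does not apply to arrays, and the single array of 8 accessions limits the precision.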
